A study of Mus musculus with 15 samples.

Results

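Collagen chains and the enzymes and helper proteins that modify collagen were followed here in mouse embryonic fibroblasts that lack p27, stathmin or both. The set was chosen by the gene name in the array files and holds 32 genes. Collagen VI, Col5a3 and Col18a1 are not among them. These genes were carried by 53 of the 41174 probes on the array. Of the 53 probes 47 were bright enough to be tested, and all 32 genes had at least 1 tested probe among 18711 tested genes. By role they were 7 chains of fibrillar collagens, 3 chains of basement membrane collagen IV, 7 fibril-associated and other chains, 5 lysyl oxidases, 7 prolyl and lysyl hydroxylases, and 3 genes for a chaperone and for propeptide removal.

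The p27 knock-out had 4 arrays, the stathmin knock-out 4, the double knock-out of both genes 3 and wild type 4. p27, encoded by Cdkn1b, inhibits cyclin-dependent kinases, and stathmin, encoded by Stmn1, destabilises microtubules. All cells were primary fibroblasts on a C57B6 background, taken from embryos at 13.5 days, grown to passage 3, kept 24 h without serum and lysed when dense. Arrays of 1 genotype are biological replicates according to the labels. How the alleles were made and how many embryos stand behind a culture are not given in the sources used here. Each array carried the sample RNA in red (Cy5) and RNA of pooled embryonic fibroblasts in green (Cy3), with no dye swap. A level below is a log2 ratio of sample over that pool after normalisation, and a difference is the mean level of a knock-out minus that of its reference genotype. In such bulk RNA, fewer cells of a type and less RNA per cell cannot be told apart.

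Collagen molecules are trimers of alpha chains that fold in the endoplasmic reticulum. There prolyl hydroxylases stabilise the triple helix, lysyl hydroxylases prepare the sites of later cross-links, and the chaperone Hsp47 (Serpinh1) guards the folded trimer. Outside the cell the propeptides are cut off and lysyl oxidases cross-link the fibrils. Fibroblasts are the main makers of the fibrillar collagens I and III.

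Median sample signals of the arrays were 251.9 to 452.4 intensity units, and 59.3 to 78.9% of spots stood well above background. Of the 2 Stmn1 probes, one read -2.98 to -2.64 in stathmin knock-out, -2.82 to -2.68 in double knock-out and 0.64 to 0.87 in wild type. The other read -0.85 to -0.06 in stathmin knock-out, -0.41 to -0.04 in double knock-out and -0.50 to 0.33 in wild type, with overlap. Where these probes lie relative to the deleted part is not given in the sources used here. The Cdkn1b probe read -1.10 to 0.05 in p27 knock-out, -1.36 to 0.19 in double knock-out and -0.22 to 0.93 in wild type, so the groups overlapped. The same holds for the place of that probe. All 10 fibroblast markers were above background on every array. So were 7 of 10 macrophage, 5 of 6 epithelial, 3 of 5 endothelial and 4 of 7 chondrocyte markers tested. The same held for 4 of 7 skeletal muscle and 5 of 7 neuronal and glial markers tested, so detection does not set fibroblasts apart. The mean level of 10 macrophage markers ran from -2.94 to 2.33 in p27 knock-out, -1.83 to -1.07 in stathmin knock-out, -2.57 to 1.45 in double knock-out and -1.98 to -0.64 in wild type. Of 9 epithelial markers 6 were tested, while Cdh1, Epcam and Cldn4 were too dim. Their mean was -1.42 to 0.04 in p27 knock-out, -1.07 to -0.24 in stathmin knock-out, -0.76 to -0.39 in double knock-out and 0.09 to 0.65 in wild type. The part of these markers in the collagen values was not tested. Wild type arrays 3 and 4 resembled each other most, with a correlation of 0.837 between their deviations from the genotype mean, against 0.654 for the next pair. A genotype always sat at the same place on its slide, and the effects of place and genotype cannot be told apart.

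No collagen gene passed the test in any of 6 comparisons (limma, adjusted p under 0.05). The threshold was passed by 0% of all tested genes in p27 knock-out against wild type. In stathmin knock-out against wild type it was passed by 0.00535%, which was the ribosomal protein gene Rpl11 alone, named after its value was seen. For the double knock-out 0% passed against wild type, against p27 knock-out and against stathmin knock-out, and 0% in the interaction of both losses. Each gene entered by its brightest probe alone. Stmn1 was not called, although a Stmn1 probe read far lower in stathmin and double knock-out than in wild type. These shares can therefore miss genes that changed. Without adjustment, collagen genes with p under 0.05 numbered 0 of 32 in p27 knock-out against wild type (5.7% of all genes). They numbered 0 in stathmin knock-out against wild type (4.72%), 1 in double knock-out against wild type (2.34%) and 0 in double against p27 knock-out (3%). Against stathmin knock-out the double knock-out had 1 (3.89%), and the interaction had 1 (7.34%). A single test for any difference among the 4 genotypes called 0 members, against 0.00535% of all genes, and 0 members had an unadjusted p under 0.05 there, against 2.92%. Its smallest p was 0.103 for Col3a1 (limma F test, adjusted p = 1.00).

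The heat map of levels by array shows wide differences between arrays of one genotype. The median collagen gene had a within-genotype SD of 0.505 log2 units, against 0.320 for the median tested gene. The SD of the 4 genotype means was 0.215 for the median collagen gene and 0.141 for the median tested gene. A within-genotype SD of the ratio above 0.5 was reached by 18 of 32 collagen genes, against 23.7% of all tested genes. In the sample channel alone the median within-genotype SD was 0.367 for collagen genes and 0.352 for all tested genes. In the reference channel it was 0.133 and 0.108. The brightest 10th of tested genes, which held 16 members, had a median sample channel SD of 0.245. For the median member the 95% interval of a difference from wild type reached 0.72 log2 units to either side in the single knock-outs and 0.78 in the double knock-out. For the median tested gene these half-widths were 0.48 and 0.52. The number of arrays limits this precision.

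**Figure D1:**
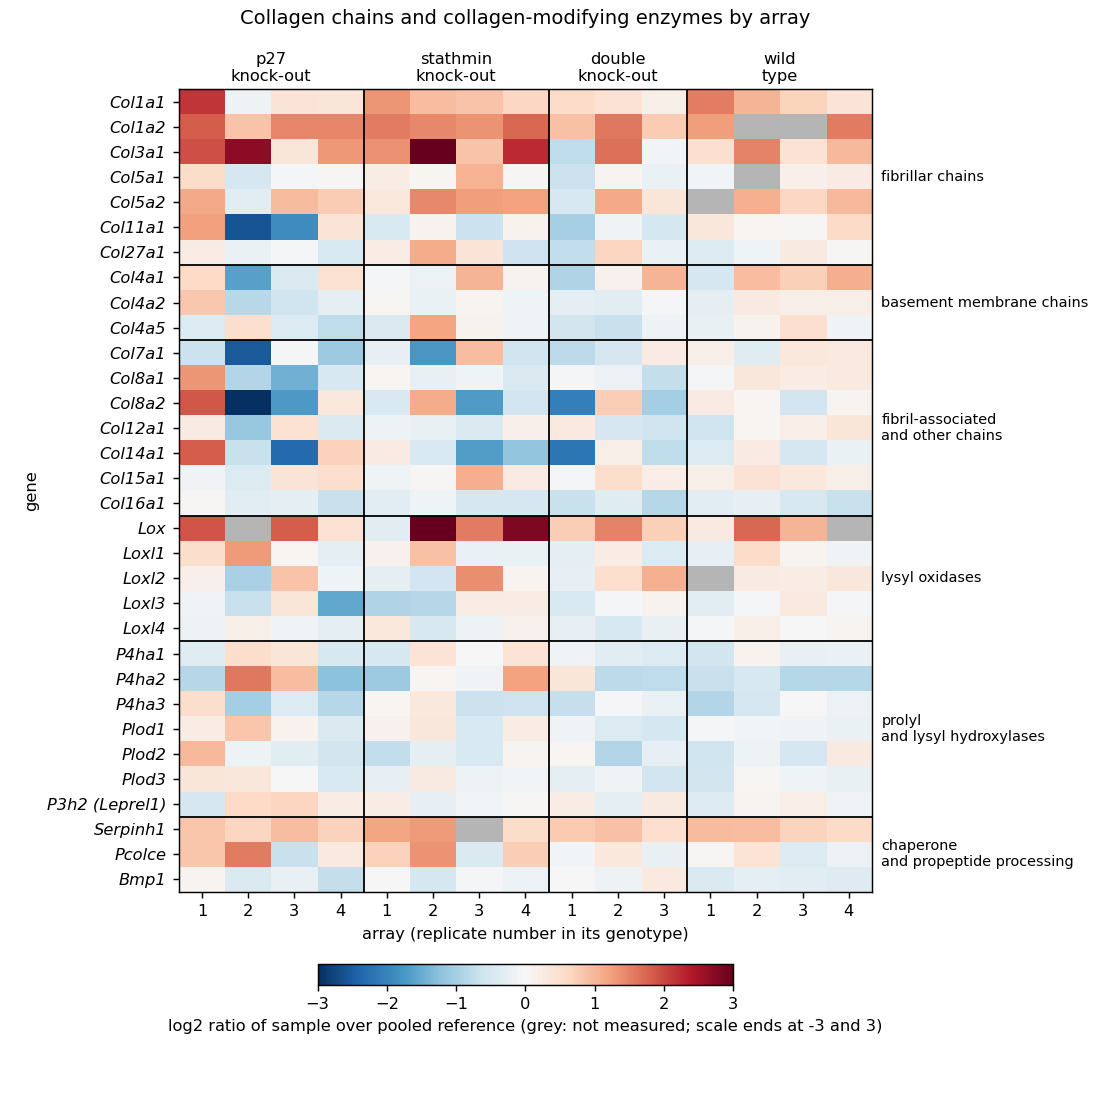
Level of each of the 32 genes (rows, by role) on each of the 15 arrays (columns, by genotype), as the log2 ratio of sample over pooled reference in colour, with grey for spots that were left out. On the brightest probe of each gene, which is drawn, collagen I chains, Col3a1, Lox and Serpinh1 are red on most of the 15 arrays. The dimmer probes of Col1a1, Col1a2 and Col3a1, not drawn, lay below 0 on most arrays. The 4 p27 knock-out arrays differ strongly among themselves in Col8a2, Col11a1 and Col14a1.

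Across genotypes the signs were uneven without any single gene passing. In double knock-out against wild type 26 of 32 members lay below 0, against 50.5% of all genes, and the median difference was -0.24, against -0.0027 over all genes. In double against stathmin knock-out 27 of 32 lay below 0, against 51% of all genes, with a median of -0.27. Without Col1a2, which was saturated on every array, 25 of 31 lay below 0 against wild type (median -0.23) and 26 of 31 against stathmin knock-out (median -0.27). In double against p27 knock-out 20 of 32 lay below 0 (52.4% of all genes), with a median of -0.21. In p27 knock-out against wild type 18 of 32 lay below 0 (47.1% of all genes; median -0.06), and in stathmin knock-out against wild type 12 of 32 (47.8%; median 0.07). Members whose arrays did not overlap between the groups numbered 0 in p27 knock-out against wild type (2.52% of all genes), 0 in stathmin knock-out against wild type (3.16%) and 0 in double against p27 knock-out (3.35%). These comparisons share arrays, and members that move together across arrays are not independent counts. Within slides, the median difference of the members in double knock-out minus wild type was -0.02, -0.21 and -0.29 on the 3 slides that hold both. It was -0.29, -0.002 and -0.29 in double minus stathmin knock-out and -0.78, -0.01 and 0.07 in double minus p27 knock-out on the same slides. Without double knock-out 1 the median against wild type was -0.13 and without double knock-out 3 it was -0.16, while against p27 knock-out it was -0.06 without p27 knock-out 1. In double against stathmin knock-out 8 of 10 fibroblast markers lay below 0 (median -0.42), 6 of 7 tested chondrocyte markers did (median -0.94) and all 10 macrophage markers lay above 0 (median 0.93). In double knock-out against wild type 5 of 10 fibroblast markers lay below 0 (median -0.07), as did all 7 chondrocyte markers (median -0.79) and all 6 tested epithelial markers (median -1.01), and all 10 macrophage markers lay above 0 (median 0.73). Their part in the collagen counts was not tested.

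**Figure D2:**
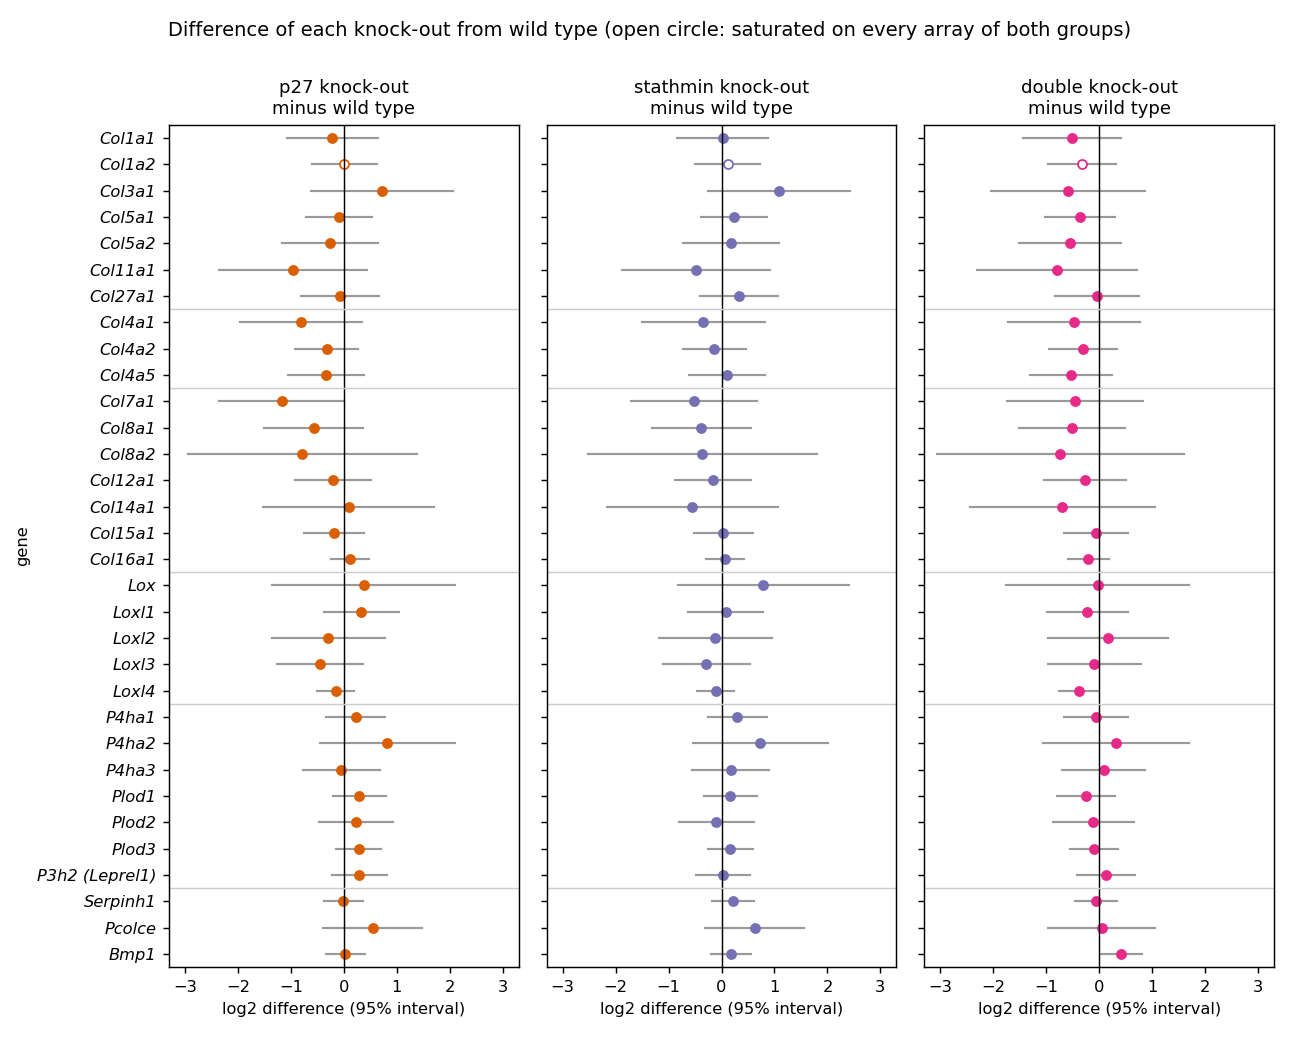
Log2 difference of p27 knock-out (left), stathmin knock-out (middle) and double knock-out (right) from wild type for each of the 32 genes, grouped by role, with 95% intervals from limma. Open circles mark Col1a2, saturated on every array. The interval of Bmp1 in the double knock-out alone leaves out 0, and the points of all collagen chains in the right panel lie left of 0 as ratios.

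Among the fibrillar chains, Col3a1 differed between the double and the single knock-outs as a ratio far more than in the sample channel alone, and did not pass. Col3a1 encodes the chain of collagen III, a homotrimer of skin, vessels and embryonic mesenchyme. Its level was 1.93, 2.69, 0.36 and 1.31 in p27 knock-out, 1.38, 3.29, 0.85 and 2.23 in stathmin knock-out, -0.77, 1.65 and -0.09 in double knock-out, and 0.51, 1.49, 0.44 and 0.96 in wild type. The highest values were in the single knock-outs and the lowest in the double knock-out, and all groups overlapped. Double minus stathmin knock-out was -1.67 (SE 0.67, 95% interval -3.12 to -0.22). Its unadjusted p was 0.027, with an adjusted p of 1.00 in limma. Double minus p27 knock-out was -1.31 (SE 0.67, adjusted p = 1.00) and stathmin knock-out minus wild type was 1.08 (SE 0.62, adjusted p = 0.910). The interaction, which is the double knock-out minus both single knock-outs plus wild type, was -2.40 (SE 0.92, adjusted p = 0.656).

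These Col3a1 ratios are limited by the scanner range: its brightest probe was saturated in the sample channel on 11 of 15 arrays, including all 4 of stathmin knock-out. Arrays were also saturated in the other groups, 2 of 3 in double knock-out, 3 of 4 in p27 knock-out and 2 of 4 in wild type, so the sample signals give no bound on a fold. In the sample channel alone, double minus stathmin knock-out was -0.22 and double minus p27 knock-out -0.24 for Col3a1. A second, dimmer Col3a1 probe correlated with the first at r = 0.899 across arrays. That probe gave -0.59 (SE 0.26) for double minus stathmin knock-out and 0.41 (SE 0.24) for stathmin knock-out minus wild type.

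Col1a1 and Col1a2 encode both chains of collagen I, the main collagen of skin, bone and tendon. Col1a2 was saturated on 15 of 15 arrays and gives no fold in any comparison. Its levels, from 0.77 to 1.83, were above 0 on all 13 arrays with a value, with wild type 2 and 3 left out as flagged spots. A dimmer Col1a2 probe ranged from -1.31 to 0.81 and lay below 0 on most arrays. Col1a1 was saturated on 12 of 15 arrays, all 4 of stathmin knock-out among them. On its brightest probe it read 0.56, 0.43 and 0.18 in double knock-out, against 1.32, 0.92, 0.86 and 0.62 in stathmin knock-out. These groups did not overlap on that probe. No overlap in that comparison was shown by 1 of 32 collagen genes and 5.41% of all genes. The difference was -0.54 (SE 0.43, adjusted p = 1.00). The sample signals of Col1a1 overlapped, at 638213, 574229 and 644803 intensity units in double knock-out against 654636, 626714, 615650 and 636052 in stathmin knock-out, and 2 of the 3 double knock-out arrays were saturated too. Against wild type, at 1.53, 1.02, 0.68 and 0.40, the double knock-out minus wild type was -0.52 (SE 0.43, adjusted p = 1.00). On the other tested Col1a1 probes double and stathmin knock-out overlapped. The first read -0.62, -0.14 and -0.48 in double knock-out, against 0.68, 0.25, -0.18 and -0.37 in stathmin knock-out. The second read -0.20, -0.44 and -0.16 in double knock-out, against 0.36, -0.30, 0.09 and -0.08 in stathmin knock-out.

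Col5a1 and Col5a2, whose collagen V starts and thins fibrils, differed by -0.59 (SE 0.29) and -0.72 (SE 0.42) between double and stathmin knock-out, both with an adjusted p of 1.00. Col5a1 stood at 1.04 on 1 stathmin knock-out array and at 0.04 to 0.21 on the other 3. Col5a1 had no value on wild type 2 and Col5a2 none on wild type 1. Col11a1, a minor chain of cartilage fibrils, read 1.24, -2.59, -1.89 and 0.39 in p27 knock-out, against 0.34, 0.07, 0.02 and 0.58 in wild type. The p27 knock-out arrays lay on both sides of the wild type range, with a difference of -0.97 (SE 0.65, adjusted p = 0.801) that was -1.62 to -0.34 with 1 array left out. In double knock-out Col11a1 read -1.01, -0.11 and -0.52 on its brightest probe, below all wild type arrays, with a difference of -0.80 (SE 0.70, adjusted p = 1.00). A second Col11a1 probe overlapped, at -0.62, 0.83 and -0.15 in double knock-out against 0.17, 0.32, 0.99 and 0.96 in wild type. Col27a1, another fibrillar chain, ranged from -0.74 to 1.10 over all arrays. Without Col1a2, the other 6 fibrillar chains lay below 0 as ratios in double knock-out against wild type, and none passed. In the sample channel alone their median was -0.13, with Col27a1 at -0.001 and Col1a2 at 0.007.

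The basement membrane chains lay below wild type in both the p27 and the double knock-out without passing. Col4a1 and Col4a2 form the widespread collagen IV network, and Col4a5 belongs to the network of kidney and other specialised membranes. Col4a1 read 0.61, -1.63, -0.43 and 0.46 in p27 knock-out, against -0.49, 0.93, 0.70 and 1.09 in wild type, a difference of -0.81 (SE 0.54, adjusted p = 0.801) that was -1.16 to -0.35 with 1 array left out. The groups overlapped, and p27 knock-out lay below its wild type partner on 3 of 4 slides. A second Col4a1 probe read 0.73, -1.33, -0.78 and -0.38 in p27 knock-out, against -0.64, -0.13, -0.26 and 0.25 in wild type. Its difference had the same sign but was smaller. Col4a5 read -0.55, -0.66 and -0.16 in double knock-out, against -0.22, 0.12, 0.51 and -0.10 in wild type. Double minus wild type was -0.54 (SE 0.36) and double minus stathmin knock-out -0.65 (SE 0.36) for Col4a5, with an adjusted p of 1.00 each.

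Among the remaining chains, Col7a1 had the largest difference of a single knock-out from wild type. Its product builds the anchoring fibrils that tie epidermis to dermis. Col7a1 read -0.65, -2.53, -0.03 and -1.09 in p27 knock-out, against 0.17, -0.36, 0.32 and 0.28 in wild type. Of the 4 p27 knock-out arrays 3 lay below all wild type arrays. The difference was -1.18 (SE 0.55, 95% interval -2.36 to 0.01, adjusted p = 0.795 in limma), and it was negative on all 4 slides, from -2.16 to -0.35. With 1 array left out it was -1.52 to -0.69. In stathmin knock-out it read -0.24, -1.75, 0.92 and -0.60, and in double knock-out -0.79, -0.50 and 0.23, so array 2 of both single knock-outs was the lowest of its group.

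Col8a2, a chain of the short-chain collagen VIII, and Col14a1, which sits on fibril surfaces, had the largest spread among the members. Col8a1, the other chain of collagen VIII, had a within-genotype SD of 0.66, and several other members spread more. Col8a2 had a within-genotype SD of 1.55, at the 99.1st percentile of tested genes, and its levels covered a 49.9-fold range. It read 1.87, -3.77, -1.73 and 0.32 in p27 knock-out, against 0.25, 0.06, -0.58 and 0.09 in wild type. Col14a1 read 1.81, -0.67, -2.32 and 0.68 in p27 knock-out, against -0.41, 0.25, -0.50 and -0.20 in wild type. On p27 knock-out array 1 all 3 genes were above the wild type range, and on arrays 2 and 3 all 3 were below it. The macrophage marker means of those 4 arrays were -0.38, 2.33, -2.94 and 0.20, and the epithelial means 0.04, -1.42, -1.12 and 0.00. Their part in these values was not tested.

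Col8a1 lay below all wild type arrays in double knock-out, at -0.07, -0.17 and -0.71 against -0.06, 0.34, 0.23 and 0.29, with a difference of -0.52 (SE 0.47, adjusted p = 1.00). Col12a1 and Col16a1, which bind fibril surfaces, and Col15a1, of basement membrane zones, stayed within narrower ranges, of which the widest was -1.13 to 0.47 for Col12a1. Col16a1 was -0.32 (SE 0.18, adjusted p = 1.00) in double minus p27 knock-out and -0.38 (SE 0.24, adjusted p = 0.705) in the interaction. All 7 of these chains lay below 0 in double knock-out against wild type (median -0.45).

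Lysyl oxidases, which oxidise lysines for cross-linking, had small or scattered differences. Loxl4 read -0.23, -0.47 and -0.23 in double knock-out, against -0.05, 0.18, 0.01 and 0.09 in wild type. The groups did not overlap, and the difference was -0.37 (SE 0.17, 95% interval -0.75 to 0.01, adjusted p = 1.00). Together with Col11a1 and Col8a1 it was 1 of 3 members whose brightest probe lay below all wild type arrays in double knock-out. Bmp1 was the 1 member above them, against 6.71% of all genes that did not overlap in either direction. The second Col11a1 probe overlapped. Lox itself read 1.88, 1.81 and 0.46 in p27 knock-out and -0.35, 3.18, 1.55 and 2.80 in stathmin knock-out. It read 0.74, 1.49 and 0.70 in double knock-out and 0.28, 1.72 and 1.02 in wild type. Flagged spots left Lox without a value on p27 knock-out 2 and wild type 4, and Loxl2 without one on wild type 1. Loxl1, Loxl2 and Loxl3 ranged from -1.56 to 1.39 over all arrays, and no lysyl oxidase passed in any comparison.

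Collagen hydroxylases were mostly above wild type in the single knock-outs, and none passed. In p27 and in stathmin knock-out 6 of 7 lay above 0 (medians 0.28 and 0.17), while in double against p27 knock-out 6 of 7 lay below 0 (median -0.34). P4ha2, a catalytic subunit of prolyl 4-hydroxylase, read -0.85, 1.58, 0.92 and -1.23 in p27 knock-out and -1.09, 0.05, -0.10 and 1.21 in stathmin knock-out. It read 0.37, -0.79 and -0.77 in double knock-out and -0.67, -0.49, -0.85 and -0.85 in wild type. The wild type arrays lay close together, and each knock-out had at least 1 array well above them. The differences of P4ha2 were 0.82 (SE 0.59, adjusted p = 0.802) in p27 knock-out minus wild type and 0.74 (SE 0.59, adjusted p = 0.910) in stathmin knock-out minus wild type. With 1 array left out they were 0.33 to 1.26 and 0.34 to 1.10.

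P4ha1, the other widely used catalytic subunit, read -0.37, 0.53, 0.37 and -0.49 in p27 knock-out and -0.48, 0.41, 0.00 and 0.40 in stathmin knock-out. It read -0.10, -0.32 and -0.41 in double knock-out and -0.55, 0.11, -0.22 and -0.20 in wild type, with overlap between all groups. It was 0.30 (SE 0.26, adjusted p = 0.910) in stathmin knock-out minus wild type and lay above wild type on all 4 slides on its brightest probe. A second P4ha1 probe read -0.31, 0.22, -0.48 and 0.32 in stathmin knock-out, against -0.27, -0.36, -0.54 and -0.39 in wild type, so slide 1 differed. Both P4ha1 probes had the same sign in 4 of 6 comparisons. Plod1, a lysyl hydroxylase, read -0.11, -0.41 and -0.53 in double knock-out, against 0.23, 0.84, 0.11 and -0.43 in p27 knock-out, a difference of -0.54 (SE 0.25, adjusted p = 1.00). Plod3, which also adds sugars to hydroxylysine, was 0.28 (SE 0.20, adjusted p = 0.801) in p27 knock-out minus wild type and -0.38 (SE 0.21, adjusted p = 1.00) in double minus p27 knock-out. In the interaction all 7 hydroxylases lay below 0 (median -0.55, against -0.02 over all genes), with Plod1 at -0.71 (SE 0.35) and Plod3 at -0.55 (SE 0.29), both with an adjusted p of 0.675. Plod2, P4ha3 and P3h2, a prolyl 3-hydroxylase listed as Leprel1, ranged from -1.03 to 0.97.

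P4ha1 and P4ha2 followed each other most closely among 7 pairs of partner genes compared. Across 15 arrays Pearson's r was 0.878 and Spearman's rho 0.804. The permutation p values, from 100000 permutations and adjusted over the 7 pairs by the Benjamini-Hochberg method, were 0.00021 and 0.0042. Without the 2 arrays farthest from the median of P4ha1, r was still 0.878. It was 0.882 after genotype means were removed, 0.923 within slides, 0.923 in the sample channel alone and 0.288 in the reference channel. The pairs were chosen with earlier results of these data known.

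The promoters of both genes are shown because they moved together. Each is the 250 bases before the transcript start of the RefSeq promoter table (GRCm38.p6, plus strand), at chr10:59323046-59323295 for P4ha1 and chr11:54100674-54100923 for P4ha2. The first overlaps the annotated 5' end of its own gene. Capitals mark ACGTG or GCGTG on either strand, the core letters bound by hypoxia-inducible factors, of which ACGTG is also part of the E-box CACGTG.
P4ha1: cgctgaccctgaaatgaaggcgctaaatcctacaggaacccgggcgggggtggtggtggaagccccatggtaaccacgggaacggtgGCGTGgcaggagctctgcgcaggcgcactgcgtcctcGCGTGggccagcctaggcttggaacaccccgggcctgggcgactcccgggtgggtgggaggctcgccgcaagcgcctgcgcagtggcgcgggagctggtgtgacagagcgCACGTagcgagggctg
P4ha2: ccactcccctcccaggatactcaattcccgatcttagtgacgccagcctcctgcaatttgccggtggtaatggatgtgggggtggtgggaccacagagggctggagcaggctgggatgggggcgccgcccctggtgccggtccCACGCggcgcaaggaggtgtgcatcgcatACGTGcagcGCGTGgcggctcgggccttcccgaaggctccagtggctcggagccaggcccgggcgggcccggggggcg
Each window holds 3 such matches, at 163, 126 and 16 bases before the start in P4ha1 and at 107, 78 and 69 in P4ha2. Over the same 250 bases, the letters occur in 38.6% of 32851 promoters in the table and in 12 of the 21 collagen genes that it lists. Of 3 other motifs searched on both strands, the GC box GGGCGG was in 17 of the 21 and in 32.7% of all promoters, CCAAT in 8 and 33.8%, and TATAAA in 2 and 12.4%. A match here is letters only, and binding was not measured.

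**Figure D3:**
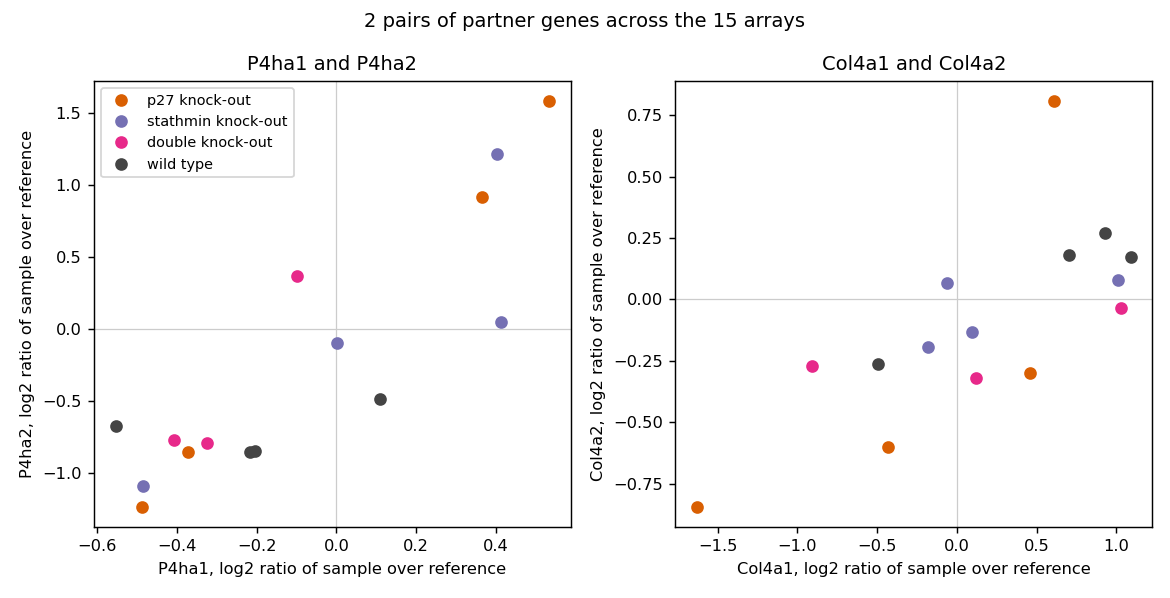
P4ha2 against P4ha1 (left) and Col4a2 against Col4a1 (right), as log2 ratios of sample over reference, 1 point for each of the 15 arrays, coloured by genotype. The points rise together in both panels, with r of 0.878 and 0.731. In the left panel knock-out arrays lie at the upper end, and knock-out and wild type arrays lie at the lower end.

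Of the other pairs, Plod1 with Plod3 had r = 0.742 and Col4a1 with Col4a2 had r = 0.731 (adjusted permutation p = 0.0046 and 0.0048). Spearman's rho was 0.70 and 0.707 (adjusted permutation p = 0.0113 each), and r without the 2 farthest arrays was 0.581 and 0.601. Col4a1 and Col4a2 lie head to head on chromosome 8, with table starts 21 bases apart on opposite strands. Col5a1 with Col5a2 had r = 0.720 (adjusted permutation p = 0.0091), but rho was 0.555 (adjusted permutation p = 0.092). Col8a1 with Col8a2 had r = 0.628 (adjusted permutation p = 0.0197), but rho was 0.425 (adjusted permutation p = 0.134) and r was 0.459 without the 2 farthest arrays. Col1a1 with Col1a2, at 0.522, and Col5a1 with Col11a1, at 0.465, did not pass (adjusted permutation p = 0.076 and 0.096). Across all 496 pairs of the 32 genes the median r was 0.12, with 25 pairs above 0.7 and 8 below -0.7. The highest was Col11a1 with Col8a2 at 0.904, and the lowest Col7a1 with Pcolce at -0.844.

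The chaperone and processing genes included the 1 member with an unadjusted p under 0.05 against wild type. Bmp1, the proteinase that cuts the C-propeptide, read 0.02, -0.15 and 0.29 in double knock-out, against -0.44, -0.29, -0.31 and -0.38 in wild type. The groups did not overlap. The difference was 0.41 (SE 0.19, 95% interval 0.01 to 0.82), with an unadjusted p of 0.046 and an adjusted p of 1.00 in limma. A second Bmp1 probe gave 0.26 (SE 0.25). In p27 knock-out Bmp1 read 0.09, -0.44, -0.23 and -0.72, and double minus p27 knock-out was 0.38 (SE 0.19, adjusted p = 1.00). The second probe read 0.16, -0.23 and -0.28 in double knock-out, against 0.54, -0.45, -0.10 and -0.49 in p27 knock-out. Both probes had the same sign in 4 of 6 comparisons.

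Pcolce, which speeds up that cleavage, read 0.69, 1.35, -0.43 and 0.73 in stathmin knock-out, against 0.02, 0.40, -0.41 and -0.17 in wild type. Of the 4 stathmin knock-out arrays 3 were above all wild type arrays, and the difference was 0.62 (SE 0.43, adjusted p = 0.910). Its interaction was -1.12 (SE 0.64, adjusted p = 0.677). Serpinh1 varied little between arrays, from 0.49 to 1.27 over 14 arrays with stathmin knock-out 3 left out as flagged. Stathmin knock-out minus wild type was 0.21 (SE 0.18, adjusted p = 0.910) for Serpinh1.

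For the brightest collagen genes the ratio moved mostly with the reference channel. Over the 15 arrays the Col3a1 sample signal spanned 1.46-fold while its reference signal, from the same pool, spanned 9.88-fold. For Lox the spans were 1.95-fold and 6.15-fold, for Col1a1 1.30-fold and 3.52-fold, and for Col1a2 1.23-fold and 2.20-fold. After normalisation of single channels, the within-genotype SD was larger in the reference than in the sample channel for 7 of 32 members, against 5.02% of all tested genes. These were Col1a1, Col1a2, Col3a1, Col5a2, Lox, Serpinh1 and Pcolce, all in the top brightness decile of genes. In that decile the same held for 7 of 16 members and 13.4% of all genes. Tested on the sample channel alone or on the reference channel alone, 0 members were called in any comparison. With unadjusted p under 0.05, 1 was found in the sample channel in p27 and 1 in double knock-out against wild type, and 0 in the other comparisons. In the reference channel 1 was found in double against p27 knock-out, 1 in double against stathmin knock-out and 1 in the interaction. The last 2 were Col3a1. The shares of all genes with such a p in a single channel are not given here, so these counts stand without a background. Of the members with 2 or more tested probes, 12 of 13 had probes that correlated across arrays at r from 0.696 to 0.946, and for Col1a2 r was -0.02.

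**Figure D4:**
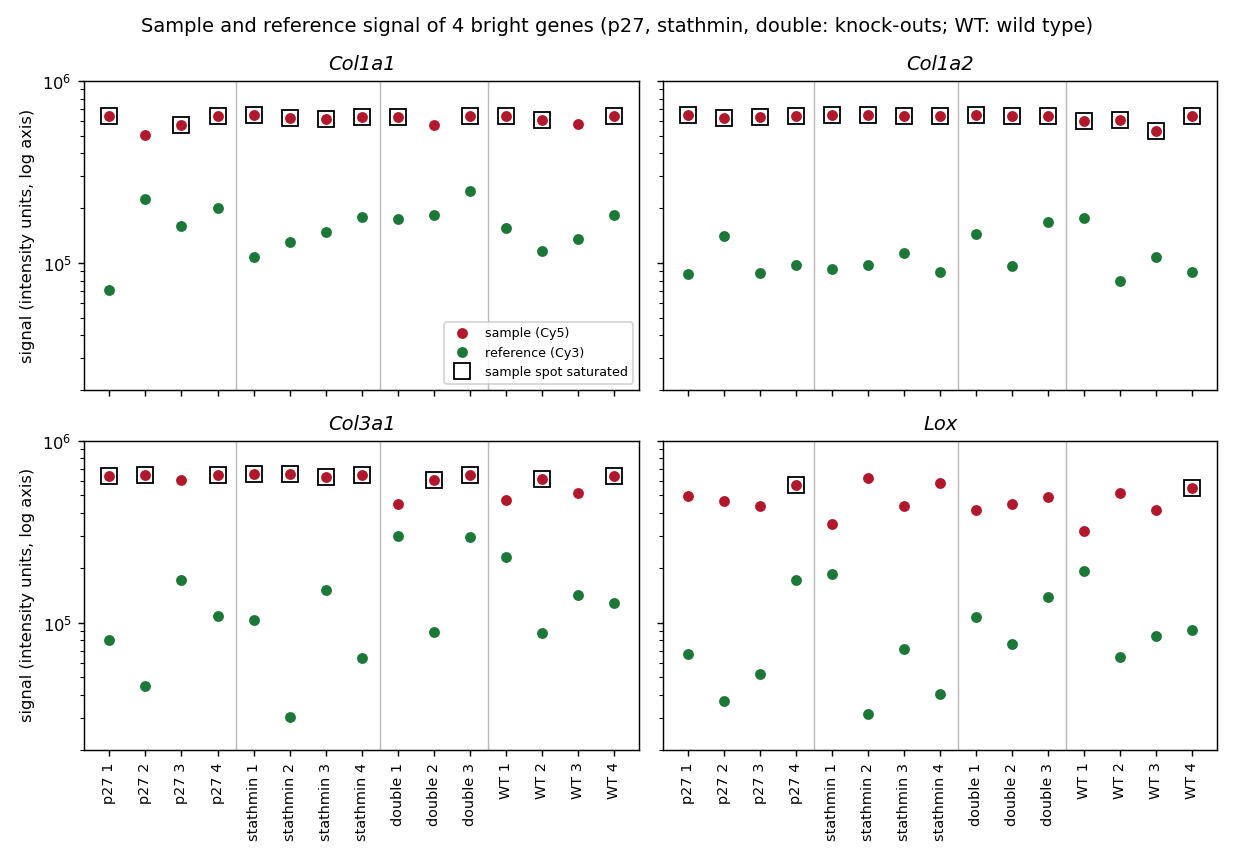
Sample (red) and reference (green) signal of Col1a1, Col1a2, Col3a1 and Lox on each array, in intensity units on a log axis, flagged spots included, with squares around saturated sample spots. The sample points lie nearly level near the top in the collagen panels, while the reference points of Col3a1 spread over 9.88-fold.

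**Figure D5:**
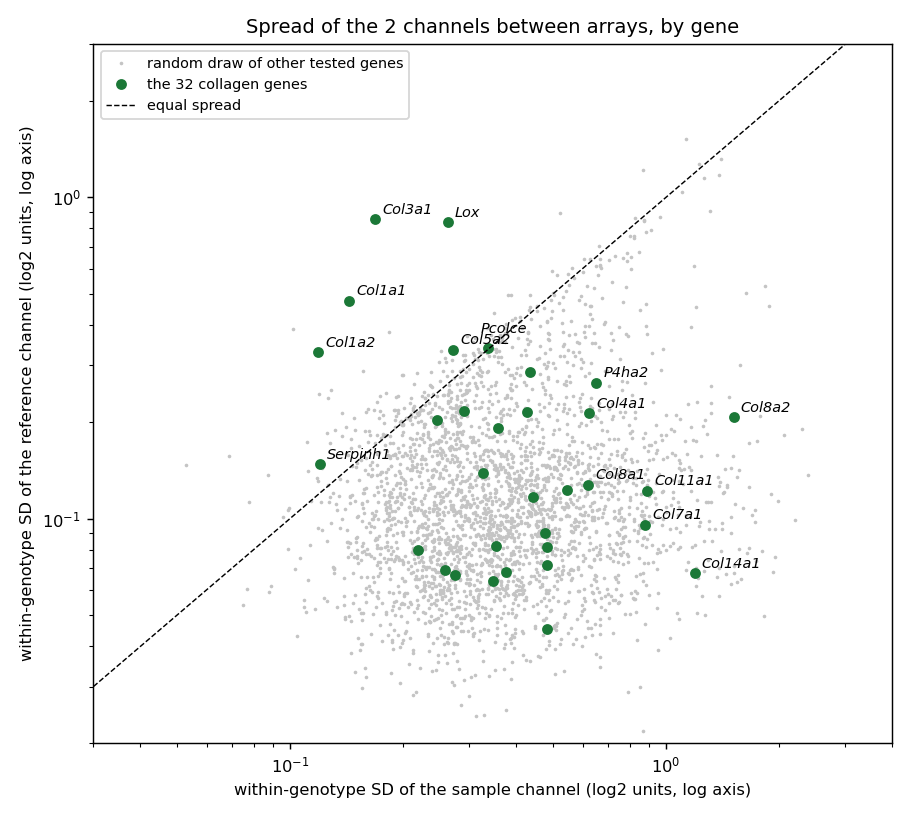
Within-genotype SD of the reference channel against that of the sample channel for the 32 genes (green) and a random draw of other tested genes (grey), both axes in log2 units on a log scale, with a dashed line of equal spread. The 7 collagen genes above the line are led by Col3a1 and Lox, and Col8a2 and Col14a1 lie far to the right.

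In lists of genes around collagen, 0 genes were called in any comparison, as in the 32 members. Of 5 chains left out of the members, all lay below 0 in double against stathmin knock-out, with a median of -0.93. All 5 had an unadjusted p under 0.05, against 3.89% of all genes, led by Col6a3 at -0.93 (SE 0.24, adjusted p = 1.00). Against wild type all 5 lay below 0 in double knock-out (median -0.61), 1 with an unadjusted p under 0.05 (2.34% of all genes). In stathmin knock-out all 5 lay above 0 against wild type (median 0.54). Of 17 tested further processing genes 10 lay below 0 in double against stathmin knock-out (median -0.06), and 0 had an unadjusted p under 0.05. Of 13 genes for collagen uptake, receptors and degradation 10 lay below 0 (median -0.38), led by the gelatinase gene Mmp2 at -1.01 (SE 0.39, adjusted p = 1.00). All 10 small leucine-rich proteoglycans, which bind collagen fibrils, lay below 0 (median -0.97), led by Omd at -2.18 (SE 0.65, adjusted p = 1.00). Their mean overlapped, at -0.17, 1.29, -1.03 and 0.17 in stathmin knock-out and -1.14, -0.44 and -1.54 in double knock-out. Against wild type 7 of the 10 lay below 0 in double knock-out (median -0.55). Of 17 other matrix glycoproteins 11 lay below 0 in double against stathmin knock-out (median -0.27), and of 18 genes of TGF-beta signalling 13 did (median -0.19). In p27 knock-out against wild type 16 of those 18 lay below 0 (median -0.37) and 2 had an unadjusted p under 0.05, against 5.7% of all genes. The mean of the 18 was 0.62, -0.73, -0.26 and -0.64 in p27 knock-out and -0.20 to 0.37 in wild type. On p27 knock-out 1 it lay above all wild type arrays.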

How the data were processed

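RNA of 15 cultures was measured on 2-colour Agilent arrays. Spots were read with Feature Extraction 9.1.3.1 and no background subtraction, per the file headers. The deposited spot signals and backgrounds are intensity values. The deposited scanner ratio is log10 of the dye-normalised sample over reference, per the file headers. The authors' deposited value table holds log2 ratios whose normalisation is not given in the sources used here. Intensities were corrected by normexp (offset 50) and normalised by loess in limma 3.58.1 under R 4.3.3, leaving out spots flagged as outliers, 0.0646 to 0.862% per array. Probes entered the test with a sample signal well above background on 3 or more arrays of a genotype, and the brightest stood for a gene.

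All 15 arrays were fitted together with a mean per genotype, tests were two-sided, and p-values were adjusted by the Benjamini-Hochberg method over all tested genes. The code was checked on simulated data. Alternatives covered background, normalisation, filter, probe choice, slide and replicate blocks, array weights and each array left out.

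Named are members past the threshold or, where fewer than 5 passed, the 5 with the smallest unadjusted p in a comparison, and at most the leading gene of another list. Genes with the largest spread or without overlap were added after their values were seen. Members, lists and pairs were chosen with earlier results of these data known.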

Additional observations from a re-analysis of the deposited data

Results flagged for a closer look

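Of 89 sets of 4 arrays of 1 genotype checked for a member, 1 held an array far from the others by Dixon's criterion at 95%, and chance flags about 1 in 20. Col5a1 read 1.04 on stathmin knock-out array 3, against 0.04 to 0.21 on the other 3 arrays of that genotype.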

How the results depend on the processing

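No member was called under any other setting run. Each comparison of 2 genotypes was refitted under 16 other settings and with each of 15 arrays left out, the interaction under 15 and 15, and the test for any difference under 14 and 15. Under those run, the median difference of the members kept its sign in all comparisons but p27 knock-out against wild type. There it was -0.17 to 0.07 with 1 array left out, and 0.07 without p27 knock-out replicate 2. It was -0.32 to -0.13 with 1 array left out in double knock-out against wild type, -0.36 to -0.20 in double against stathmin knock-out and -0.25 to -0.06 in double against p27 knock-out. It was 0.0065 to 0.12 in stathmin knock-out against wild type and -0.37 to -0.16 in the interaction. Of the differences of named members, Col1a2 in double minus stathmin knock-out turned to 0.0774 with the mean of its tested probes. It turned to 0.592 with the brightest probe saturated on no array, a setting chosen after seeing the data. Its main probe was saturated on every array, and the cause was not tested.

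Not every pair of arrays with the same replicate number deviated together, and the number is not shown to pair cultures. Their correlations were -0.323 to 0.427, with 12 of 21 over 0.1, and 5 of 15 arrays correlated best with their own number. With the replicate number as a block, 0 members were called, and the median difference was -0.25 in double knock-out against wild type and -0.29 against stathmin knock-out. Signal limits Col1a2, Col1a1 and Col3a1 at the bright end, where saturated spots limit the ratios.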
